A study of Homo sapiens with 6 samples.

Results

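A group of 10 genes of plasma-membrane amino acid transport was examined in DU145, an established human prostate cancer cell line. The deposited table held 19727 genes. The 10 were chosen by symbol, with earlier results of these data known. They are SLC3A2, SLC7A1, SLC7A5, SLC7A11, SLC1A3, SLC1A4, SLC1A5, SLC38A1, SLC38A2 and SLC6A9. The group leaves out other plasma-membrane carriers of these cells, which are described further below. All 10 were found, and all 10 passed the filter on low values. The libraries were 3 from cells stably transfected with lentivirus-circCSPP1, a vector for the circular RNA circCSPP1 (OE in the labels, genotype circCSPP1 overexpression), and 3 from cells with the control lentivirus-NC (NC in the labels, genotype normal). Both lines had been selected with puromycin, so drug selection and a lentiviral vector were common to both groups, and each group was 1 stable line with its own vector, so that line, vector and circCSPP1 cannot be told apart. The labels do not say whether the libraries of a group came from separate cultures, so the p-values measure the spread between these libraries, which may be technical. The libraries were made from polyadenylated RNA and read from both ends, and each value is an FPKM, the fragments on a gene scaled to its transcript length and to the size of the library. The circular RNA itself was not analysed here, since the table lists genes, so the labels could not be checked through it.

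Cells take up amino acids through families of solute carriers. SLC3A2 (CD98 heavy chain) is not a transporter by itself: it carries light chains to the plasma membrane, among them SLC7A5 (LAT1), which brings in leucine and other large neutral amino acids in exchange for glutamine, and SLC7A11 (xCT), which exchanges glutamate for cystine. SLC7A1 (CAT1) imports arginine and lysine without a heavy chain. SLC1A4 (ASCT1) and SLC1A5 (ASCT2) exchange small neutral amino acids, SLC1A5 being a main route for glutamine, while SLC1A3 (EAAT1) of the same family takes up glutamate and aspartate. SLC38A1 and SLC38A2 (SNAT1 and SNAT2) accumulate neutral amino acids with sodium, and SLC6A9 (GlyT1) imports glycine.

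The depth of the libraries, read from the steps between low FPKM values, was 28900000 to 36400000 fragments, and the groups overlapped. The cells carried the epithelial markers KRT8, KRT18, KRT19, EPCAM and CDH1, whose summed level was 2271 to 2361 FPKM in NC and 1046 to 1278 FPKM in OE, with all 5 genes lower in OE (limma, adjusted p under 0.05). The prostate luminal markers KLK3, KLK2 and TMPRSS2 did not reach 1 FPKM in any library. Of 11 markers of immune, endothelial and fibroblast cells, 2 (CD68 and COL1A1) reached 1 FPKM, the list summed to 47.1 to 53.6 FPKM in NC and 37.4 to 52.4 FPKM in OE, and COL1A1 was lower in OE. Their part in the results below was not tested. OE replicate 1 stood apart from OE replicates 2 and 3 in a way that followed the base composition of the transcripts. Over the tested genes the Spearman correlation of its departure with transcript GC content was 0.784.

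Of the 10 members, 6 were called higher in OE at an adjusted p under 0.05, and these are termed the members that rose. SLC1A4 rose 2.51-fold, SLC3A2 2.24-fold, SLC7A11 1.998-fold, SLC1A5 1.65-fold, SLC6A9 1.62-fold and SLC7A1 1.58-fold between the group means (n = 3 in each group). The rises therefore took in the shared heavy chain, the cystine carrier, both neutral exchangers of the SLC1 family, the glycine carrier and the cationic carrier. The 6 had an adjusted p of 0.0013 to 0.046 in limma, fitted on log2(FPKM + 1) to the 12322 genes that averaged 1 FPKM or more and adjusted by the Benjamini-Hochberg method, against 4.69% of all tested genes called higher. SLC7A5, SLC38A1, SLC38A2 and SLC1A3 had an adjusted p above 0.05. No member was called lower by limma, nor with an unmoderated variance. At an unadjusted p under 0.05 there were 8 members, SLC7A5 and SLC38A1 in addition, all with higher means in OE. That looser threshold was passed by 28.2% of all tested genes in either direction and by 12.2% with the higher level in OE. In 7 members all OE libraries lay above all NC libraries, as in 16% of the genes tested. Groups apart in either direction were found in 36.4%. The median log2 fold change of the members was 0.70, that of all tested genes -0.03. Since the members were chosen with earlier results of these data known, these counts and medians are a description. None of the 10 passed the thresholds that the study applied to its genes, an unadjusted p under 0.01 with a log2 fold change of 1.5 or more in either direction, which 0.195% of the tested genes did. For 1 gene with 3 libraries against 3, an exact permutation test reaches no p under 0.10.

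**Figure D1:**
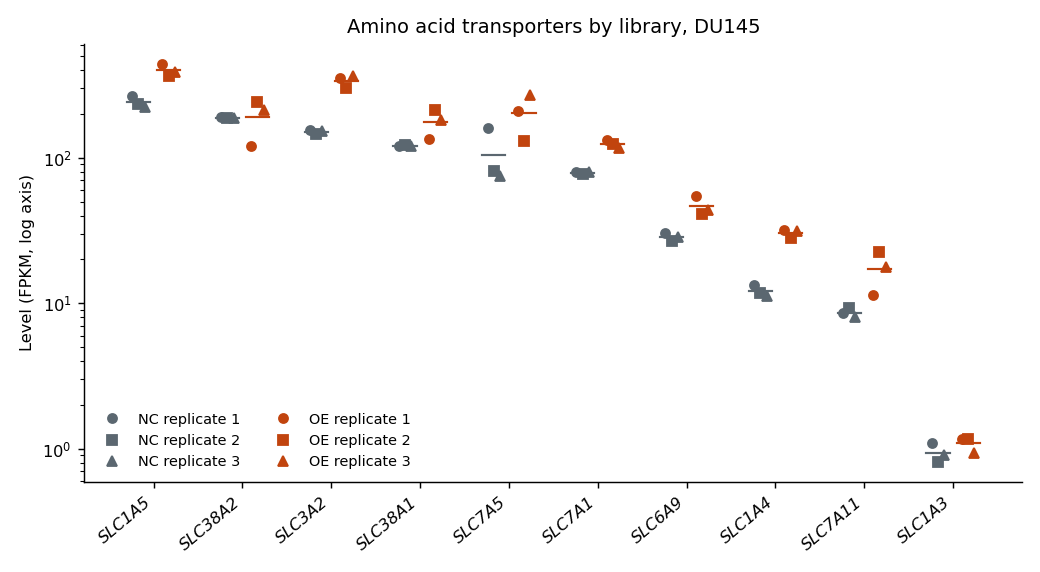
Level of each transporter in the 6 libraries, in FPKM on a log axis. Grey marks are NC and red marks OE, circles, squares and triangles are replicates 1, 2 and 3, and the lines are group means. In SLC1A5, SLC3A2, SLC7A1, SLC6A9, SLC1A4, SLC7A11 and SLC38A1 the red marks all lie above the grey ones, while in SLC7A5, SLC38A2 and SLC1A3 the groups overlap.

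Several transporter genes are known to be induced through a composite element bound by the stress factor ATF4 and its C/EBP partners, and the promoters of the members are shown for that reason. The letters TGATGNAA were searched on both strands in the window from 250 bases before to 50 bases after each start listed by RefSeq (GRCh38.p14). The 9 members with a window, all but SLC7A11, had 17 windows. At least 1 match was found in 6 of these 9 members, in 6 of 17 windows, while 3.62% of the 35116 windows of all genes and 4.46% of all symbols held one. The matches were on the gene's strand in SLC7A1, SLC1A5, SLC38A1 and SLC1A3 and on the opposite strand in SLC1A4 and SLC3A2. They are given below 5′ to 3′ on the gene's strand, with the match in capitals.
SLC1A4, chr2:64989383-64989408, from 7 bases before the start: ggctcccgtTTGCATCAtctccagcc
SLC3A2, chr11:62881727-62881748, from base 38 of the transcript: caggactccTTACATCAgctcc
SLC7A1, chr13:29595665-29595690, from base 8 of the transcript: gcgcactgcTGATGAAAcctggcgcc
SLC1A5, chr19:46784895-46784920, from 97 bases before the start: ggaagtggcTGATGCAAgctgtccag
SLC38A1, chr12:46266504-46266529, from 4 bases before the start: agacccgaaTGATGAAAagggatcag
SLC1A3, chr5:36596359-36596384, from 220 bases before the start: ggaaatgacTGATGCAAagcagggtt
SLC1A4, SLC3A2, SLC7A1 and SLC1A5 were among the members that rose. SLC38A1 and SLC1A3 were not called, though all OE libraries of SLC38A1 lay above its NC libraries. SLC6A9 also rose and had no match in its windows, and neither did SLC7A5 and SLC38A2, which were not called. SLC3A2, SLC1A5, SLC38A1, SLC1A4 and SLC1A3 have more than 1 listed start, and the deposited values do not say which was in use. The antioxidant response element letters TGACNNNGC, bound by NRF2, were matched in 5 of the 9 members (SLC3A2, SLC7A1, SLC7A5, SLC1A5 and SLC1A3) and in 16.1% of all symbols. By window, they were matched in 5 of 17 and in 13.3% of the windows of all genes. The E-box CACGTG, bound by MYC and related factors, was matched in SLC7A5 and SLC1A5 and in 8.77% of all symbols. By window, it was matched in 2 of 17 and in 7.26% of the windows of all genes. The matches of the 3 motifs did not overlap each other. A match describes the letters of a window and is not a measured binding site.

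The heavy chain SLC3A2 (ENSG00000168003) spans bases 62856102 to 62888875 of chromosome 11 (GRCh38, plus strand). Its level was 156, 145 and 152 FPKM in NC replicates 1, 2 and 3 and 351, 302 and 363 FPKM in OE replicates 1, 2 and 3. The lowest OE library was thus far above the highest NC library. Mean levels were 151 ± 5.52 FPKM in NC and 338 ± 32.3 FPKM in OE (SD, n = 3 each). SLC3A2 rose by 1.15 on the log2 scale (adjusted p = 0.0013 in limma, standard error 0.089), more than the spread between libraries, and it kept an adjusted p under 0.05 in each of the 18 alternative fits.

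The light chain SLC7A11 (ENSG00000151012), the cystine carrier, lies on chromosome 4 from 138164097 to 138242349 on the minus strand. It was the lowest of the members that rose, with 8.54, 9.26 and 8.02 FPKM in NC and 11.3, 22.4 and 17.9 FPKM in OE. The OE libraries all exceeded the NC libraries but were spread widely, with replicate 1 the lowest. SLC7A11 rose by 0.87 on the log2 scale (adjusted p = 0.046 in limma, standard error 0.22). Of the 18 alternatives, 10 kept the call. Without OE replicate 1 it rose by 1.13 (adjusted p = 0.0025), and with any 1 of the other 5 libraries left out the call was lost (adjusted p of 0.075 to 0.15). At the measured depth, the values correspond to about 2422 to 7497 fragments per library on its transcript of 9645 nt. An antisense gene, SLC7A11-AS1, overlaps 14081 nt of the locus, and fragments of the 2 genes cannot be told apart without strand information, which the sources used here do not give.

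The light chain SLC7A5 (ENSG00000103257), the leucine carrier, lies on chromosome 16 from 87830023 to 87869488 on the minus strand. It measured 159, 81.5 and 74.4 FPKM in NC and 211, 130 and 272 FPKM in OE. NC replicate 1 was higher than OE replicate 2, so the groups overlapped. NC replicate 1 was 2.04-fold the mean of the other NC libraries, and 39 of the 12322 tested genes departed upward in that library by as much on the log2 scale. Mean levels were 105 ± 46.9 FPKM in NC and 204 ± 71.0 FPKM in OE (SD, n = 3 each), and the log2 fold change of 0.97 had a 95% interval of 0.17 to 1.78. This change was numerically larger than that of 4 members that passed, but with a standard error of 0.34 its adjusted p was 0.11. Without NC replicate 1 the log2 fold change was 1.31 (adjusted p = 0.068), and none of the 18 alternatives brought the adjusted p under 0.05 (0.056 to 0.31, limma). SLC7A5 has the pseudogene copies SLC7A5P1 and SLC7A5P2 elsewhere on the chromosome, and its level is uncertain to the extent that the authors' counting divided fragments among them.

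SLC1A4 (ENSG00000115902), an exchanger of serine, alanine and cysteine on chromosome 2 from 64988477 to 65023865 (plus strand), had the largest log2 fold change of the 10 members with all libraries fitted. It measured 13.3, 11.8 and 11.3 FPKM in NC and 31.8, 28.1 and 31.2 FPKM in OE. The groups were well separated, with little spread within either. SLC1A4 rose by 1.26 on the log2 scale (adjusted p = 0.0015 in limma, standard error 0.11). Its relative SLC1A5 (ENSG00000105281), on chromosome 19 from 46774883 to 46788594 (minus strand), was the most abundant member in both groups. It measured 265, 234 and 223 FPKM in NC and 442, 363 and 390 FPKM in OE. All OE libraries were above all NC libraries, and the rise of 0.72 on the log2 scale (adjusted p = 0.0071 in limma, standard error 0.10) was numerically smaller than that of SLC1A4. Both kept an adjusted p under 0.05 in all 18 alternatives.

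The cationic carrier SLC7A1 (ENSG00000139514), on chromosome 13 from 29509410 to 29595688 (minus strand), measured 79.7, 77.2 and 80.3 FPKM in NC and 133, 124 and 117 FPKM in OE. The NC libraries were nearly equal and the OE libraries were all higher. SLC7A1 rose by 0.65 on the log2 scale (adjusted p = 0.0049 in limma, standard error 0.079), with a call in all 18 alternatives. The glycine carrier SLC6A9 (ENSG00000196517), on chromosome 1 from 43991500 to 44031467 (minus strand), measured 30.5, 26.6 and 28.7 FPKM in NC and 54.8, 41.1 and 43.5 FPKM in OE. Here OE replicate 1 was the highest library. The rise was 0.67 on the log2 scale (adjusted p = 0.018 in limma, standard error 0.13), and 13 of the 18 alternatives kept the call. When 1 library was left out, its adjusted p reached 0.091. SLC6A9 overlaps CCDC24 on the opposite strand by 5029 nt.

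The pair of sodium-coupled neutral carriers, neighbours on chromosome 12 (minus strand), gave unlike values. SLC38A1 (ENSG00000111371), from 46183063 to 46270017, measured 120, 122 and 120 FPKM in NC and 134, 213 and 183 FPKM in OE. All OE libraries were above the NC libraries, but OE replicate 1 only slightly, and the log2 fold change of 0.52 (standard error 0.16) had an adjusted p of 0.078 in limma. SLC38A2 (ENSG00000134294), from 46358189 to 46372867, measured 190, 188 and 188 FPKM in NC and 120, 242 and 212 FPKM in OE. OE replicate 1 fell below the NC libraries and the other OE libraries lay above them. Its log2 fold change was -0.04 (adjusted p = 0.93 in limma) with a 95% interval of -0.59 to 0.51, whose upper end is close to the value of SLC38A1. When OE replicate 1 was left out, SLC38A1 rose by 0.70 (adjusted p = 0.0025) and SLC38A2 by 0.26 (adjusted p = 0.029, limma).

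The glutamate carrier SLC1A3 (ENSG00000079215), on chromosome 5 from 36606355 to 36688334, was barely expressed. It measured 1.10, 0.81 and 0.91 FPKM in NC and 1.16, 1.17 and 0.93 FPKM in OE, about 98 to 169 fragments per library. The groups overlapped, and the mean of 1.01 FPKM over the libraries was just inside the filter. The log2 fold change was 0.11 with a 95% interval of -0.16 to 0.37 (adjusted p = 0.59 from limma).

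The members fell into those that were higher and those that were lower in OE replicate 1 than in the other OE libraries. Relative to the mean of OE replicates 2 and 3, this library was lower by 0.91 in SLC38A2, by 0.77 in SLC7A11 and by 0.56 in SLC38A1 on the log2(FPKM + 1) scale, and higher by 0.078 to 0.37 in the other 7 members. These 3 genes had the lowest transcript GC contents of the 10, 38.1% in SLC38A2, 35.4% in SLC7A11 and 41.3% in SLC38A1, against 43.8% to 61.3% in the others and a median of 49.3% over the tested genes. Departure and GC content had a Spearman correlation of 0.915 over the 10 members, which share the library, its depth and the annotation, and is given as a description. When each library was adjusted by loess for the GC content and length of transcripts, the log2 fold changes were 0.91 in SLC7A11 (adjusted p = 0.00079), 0.58 in SLC38A1 (adjusted p = 0.0024) and 0.03 in SLC38A2 (adjusted p = 0.88, limma). The correction thus added SLC38A1 to the 6 called members, against 14.4% of all genes called higher in that fit. Leaving out OE replicate 1 gave 8 called members against 13.2% of all genes, with SLC38A2 and SLC38A1 in addition. Leaving out NC replicate 1, 2 or 3 or OE replicate 3 left 4 called members, SLC3A2, SLC1A4, SLC1A5 and SLC7A1, where 1.18%, 1.24%, 1.34% and 1.58% of all tested genes were called higher. Without OE replicate 2 there were 5, SLC6A9 in addition, against 4.06% of all tested genes.

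**Figure D2:**
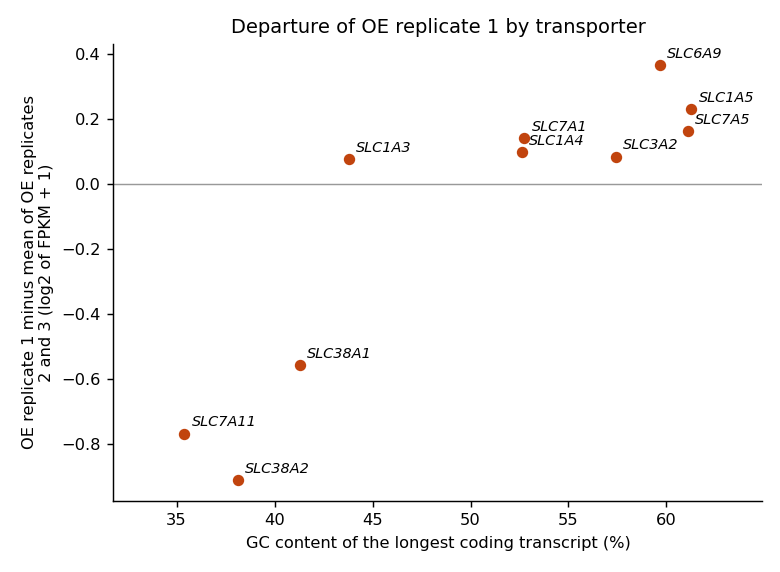
Departure of OE replicate 1 from the mean of OE replicates 2 and 3 on the log2(FPKM + 1) scale against the GC content, in percent, of the longest coding transcript of each of the 10 transporters. SLC7A11, SLC38A2 and SLC38A1, with GC contents of 35.4% to 41.3%, lie at -0.56 or below, and the other 7 lie above 0.

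**Figure D3:**
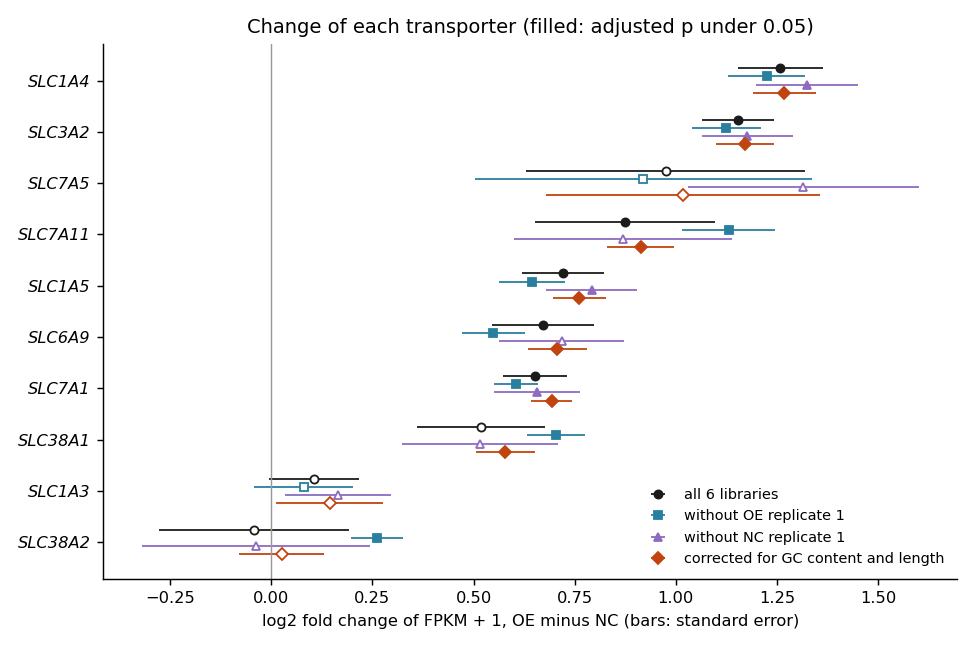
Log2 fold change of FPKM + 1, OE minus NC, for each transporter with all 6 libraries, without OE replicate 1, without NC replicate 1, and after the correction for GC content and length. Bars are standard errors, and filled marks had an adjusted p under 0.05 in limma. SLC1A4, SLC3A2, SLC1A5 and SLC7A1 are filled in all 4 fits, SLC7A5 and SLC1A3 in none.

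Whether related or partnered carriers changed to the same extent was compared through the ratio of their FPKM values within a library. Such a ratio does not depend on how the library is scaled. It can still depend on GC content, which OE replicate 1 followed and which differed within pairs (35.4% in SLC7A11, 57.4% in SLC3A2). There were 6 pairs, and in each an exact two-sided permutation test can give no p below 0.10. The SLC1A4 to SLC1A5 ratio was 0.0503, 0.0503 and 0.0504 in NC and 0.0720, 0.0775 and 0.0800 in OE. SLC1A4 thus gained on SLC1A5 in each OE library, by a log2 difference of 0.60 (standard error 0.045, exact p = 0.10, adjusted over the 6 pairs 0.20). The SLC38A1 to SLC38A2 ratio was 0.635, 0.647 and 0.639 in NC and 1.12, 0.882 and 0.862 in OE, so that SLC38A1 gained on SLC38A2 in all OE libraries, replicate 1 included, by a log2 difference of 0.56 (standard error 0.12, exact p = 0.10, adjusted 0.20). The SLC7A1 to SLC3A2 ratio fell from 0.510, 0.532 and 0.528 to 0.380, 0.412 and 0.324, without overlap, a log2 difference of -0.50 (standard error 0.10, exact p = 0.10, adjusted 0.20).

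The ratios of the light chains overlapped between the groups. The SLC7A11 to SLC3A2 ratio was 0.0547, 0.0637 and 0.0527 in NC and 0.0323, 0.0742 and 0.0492 in OE, a log2 difference of -0.21 (exact p = 0.70, adjusted 0.84), and single OE libraries differed from single NC libraries by between -0.98 and 0.49. The SLC7A5 to SLC3A2 ratio was 1.02, 0.561 and 0.489 in NC and 0.6001, 0.431 and 0.749 in OE, a log2 difference of -0.18 (exact p = 0.70, adjusted 0.84), with single differences between -1.24 and 0.61. The ratio of the 2 light chains, SLC7A11 to SLC7A5, overlapped between the groups (log2 difference -0.04, exact p = 1, single differences from -1.08 to 1.68). These ranges leave room for sizeable shifts in either direction. After the GC and length correction, on log2(FPKM + 1), these log2 differences were -0.26, -0.15 and -0.11 in the same order. Those of SLC1A4 to SLC1A5, SLC38A1 to SLC38A2 and SLC7A1 to SLC3A2 were then 0.51, 0.55 and -0.48. The heavy chain was also set against the sum of its 6 light chains in the table, SLC7A5, SLC7A6, SLC7A7, SLC7A8, SLC7A10 and SLC7A11. SLC3A2 was 0.729, 1.10 and 1.17 times that sum in NC and 1.32, 1.43 and 1.15 times in OE, and the groups overlapped.

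**Figure D4:**
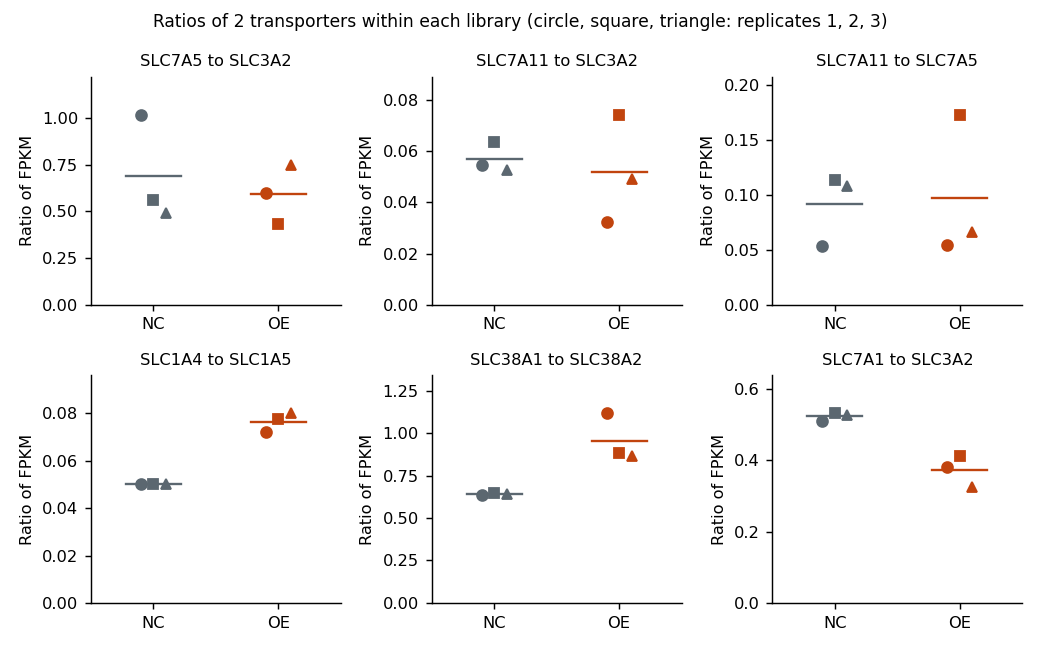
Ratio of the FPKM values of 2 transporters within each library for 6 pairs, with linear axes from 0. Grey marks are NC, red marks are OE, circles, squares and triangles are replicates 1, 2 and 3, and lines are group means. The groups do not overlap for SLC1A4 to SLC1A5, SLC38A1 to SLC38A2 and SLC7A1 to SLC3A2, and overlap for the 3 light chain ratios.

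The order of the levels was not the same in the 2 groups. In NC the mean FPKM ran from SLC1A5 (241) through SLC38A2 (189), SLC3A2 (151), SLC38A1 (121), SLC7A5 (105), SLC7A1 (79.1), SLC6A9 (28.6), SLC1A4 (12.1) and SLC7A11 (8.61) to SLC1A3 (0.940). Of these neighbours, SLC38A1 with SLC7A5 and SLC7A5 with SLC7A1 overlapped in range. In OE the order began with SLC1A5 (398), SLC3A2 (338), SLC7A5 (204), SLC38A2 (191) and SLC38A1 (176), where SLC7A5 with SLC38A2 and SLC38A2 with SLC38A1 overlapped, and went on with SLC7A1 (125), SLC6A9 (46.5), SLC1A4 (30.4), SLC7A11 (17.2) and SLC1A3 (1.09). SLC3A2 stood below SLC38A2 in all NC libraries and above it in all OE libraries. The 10 genes together made up 0.147% to 0.170% of all FPKM in NC libraries and 0.248% to 0.273% in OE libraries, without overlap.

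The other amino acid transporters were called in both directions. Their list held 55 carriers of the plasma membrane, lysosome and mitochondrion, and 26 of them were tested. Of these, 3 were called higher and 3 lower, with a median log2 fold change of -0.01, beside 4.69% and 6.66% of all tested genes. The 3 higher genes were MFSD12, a carrier of cysteine into lysosomes and melanosomes (131 ± 3.70 to 234 ± 37.8 FPKM, log2 fold change 0.82), the mitochondrial glycine carrier SLC25A38 (16.6 ± 2.04 to 28.3 ± 2.21 FPKM, 0.74) and the taurine transporter SLC6A6 (33.9 ± 1.59 to 51.3 ± 9.68 FPKM, 0.57). The 3 lower genes were SLC25A29, a mitochondrial carrier of basic amino acids (28.04 ± 2.72 to 15.3 ± 2.26 FPKM, -0.84), the glutamate carrier SLC1A1 (4.18 ± 0.594 to 2.41 ± 0.397 FPKM, -0.60) and the neutral uniporter SLC43A2 (12.98 ± 1.39 to 8.99 ± 0.858 FPKM, -0.48). Values are means ± SD with n = 3, and the adjusted p of the 6 genes was 0.0077 to 0.044 (limma). Of 18 alternative fits, MFSD12 kept the call in 17, SLC25A38 in 16, SLC25A29 in 15, SLC6A6 in 11 and SLC43A2 in 8. SLC1A1 kept it in 10 of 17. The 5 tested carriers of the SLC38 family outside the members all had log2 fold changes below 0, and none was called. Of the 12322 tested genes, 6648 were below 0. The 5 values ran from -0.01 in SLC38A10 to -0.56 in SLC38A6. After the GC and length correction SLC38A10 was at 0.04 and SLC38A6 at -0.53 (adjusted p = 0.020, limma). The remaining 29 carriers were under a mean of 1 FPKM, among them the alternative heavy chain SLC3A1 and the light chains SLC7A7, SLC7A8, SLC7A9 and SLC7A10. Of 187 tested solute carriers outside both lists, 4 were called higher and 19 lower, with a median log2 fold change of -0.12. Both lists were chosen with earlier results of these data known, so the contrast between them is a description.

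**Figure D5:**
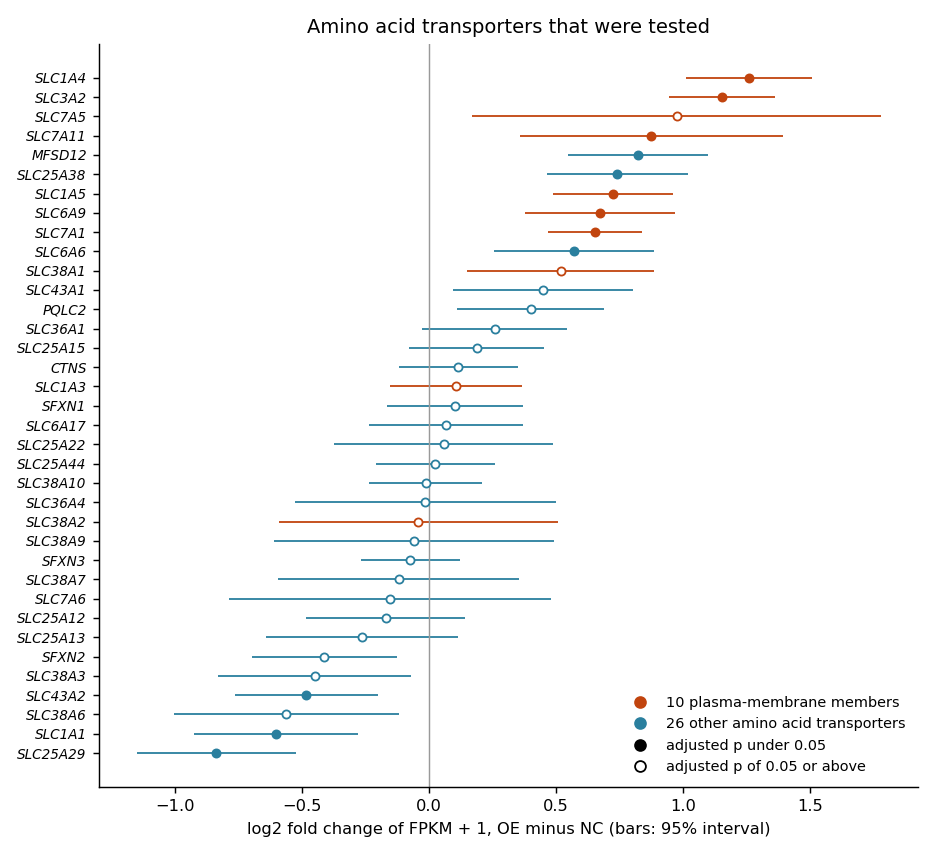
Log2 fold change of FPKM + 1, OE minus NC, with 95% intervals, for the 10 members (red) and the 26 other tested amino acid transporters (blue), ordered by size. Filled marks had an adjusted p under 0.05 in limma. The 6 filled red marks lie to the right of 0, while the blue ones lie on both sides, with 3 filled on each.

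Of 14 genes known to regulate, bind or stabilise these carriers, 3 were called higher by limma and 0 lower. Over all tested genes, 4.69% were called higher and 6.66% lower. They were DDIT3, the stress factor CHOP (24.5 ± 3.64 to 76.4 ± 7.98 FPKM, log2 fold change 1.61, adjusted p = 0.0015), NFE2L2, which encodes NRF2, an activator of SLC7A11 (30.2 ± 11.4 to 63.2 ± 8.77 FPKM, 1.09, adjusted p = 0.029), and ATF4 itself (296 ± 8.83 to 389 ± 8.15 FPKM, 0.40, adjusted p = 0.011; SD, n = 3 in each group). DDIT3 kept the call in all 18 alternatives, ATF4 in 14 and NFE2L2 in 13. MYC, an activator of SLC7A5 and SLC1A5, measured 33.6, 32.1 and 26.9 FPKM in NC and 72.4, 14.97 and 28.04 FPKM in OE, with OE replicate 1 the highest and OE replicate 2 the lowest of all libraries (log2 fold change 0.03, standard error 0.48, adjusted p = 0.98). CEBPB, BACH1, BAP1, CD44, OTUB1, LAPTM4B, NEDD4L, RNF5 and BSG were measured and had an adjusted p above 0.05.

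The study also examined the microRNA miR-520h, and for that reason the 3′ UTRs of the members were searched for its seed. The mature miRNA (RefSeq, GRCh38.p14) is shown with bases 2 to 8 in capitals, followed by the match in SLC7A11 that pairs with bases 2 to 8 and is followed by A, and by the matches to bases 2 to 8 in SLC1A4 and SLC6A9, the other 2 members that rose and held one.
hsa-miR-520h: aCAAAGUGcuucccuuuagagu
SLC7A11: atacccagagCACTTTGAacaaaggtca
SLC1A4: cctctgataaCACTTTGgctttttctc
SLC6A9: aggtccaaagCACTTTGgaggggtctc
In the longest coding transcript of GENCODE release 29, a match of 7 bases (CACTTTG, or ACTTTG followed by A) was present in 5 of the 10 members, SLC7A11 with 4, SLC38A1 with 2, and SLC38A2, SLC1A4 and SLC6A9 with 1 each. The background was 32.4% of the 12193 tested genes with a 3′ UTR. SLC3A2, SLC7A1 and SLC1A5 rose and held none, not even the 6 bases ACTTTG, and nor did SLC7A5. Matches were thus present in 3 of the 6 members that rose. The 3′ UTRs differed in length from 167 nt in SLC3A2 to 7859 nt in SLC7A11, and longer ones have more room for a match.

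The mean log2 profile of the 10 members over the 6 libraries was most like those of KLF4 (Pearson r = 0.998), TBC1D2B (0.997), ANXA11 (0.996), USP36 (0.996) and FBXO42 (0.995). These values are a description over 6 libraries that include the group difference, and 655 tested genes outside the lists had an r above 0.9. Among the members, each of which is itself part of the mean profile, SLC1A4 (0.985) and SLC3A2 (0.976) followed it most closely. SLC38A2 (0.025) followed it the least.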

How the data were processed

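RNA-seq of 6 DU145 libraries, 3 NC and 3 OE, was analysed, grouped by their titles. The authors isolated polyadenylated RNA, sequenced it on an Illumina NovaSeq instrument and deposited 1 FPKM value per gene and library, rounded to 2 decimals. The submitters' processing notes name the build hg38, and the aligner, FPKM program and annotation are not given in the sources used here. FPKM also moves when other genes take more of the library. Columns were matched by group code and replicate number.

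Values were taken to log2(FPKM + 1), so that fold changes of low genes are understated. The 12322 genes that averaged 1 FPKM or more were fitted with limma 3.58.1 in R 4.3.3 (trend, two-sided, no covariate), with Benjamini-Hochberg adjustment over all of them. The study's text names no test for its RNA-seq. Coordinates, transcript lengths and GC content were those of GENCODE release 29, from the longest coding transcript. Depth was read in genes with 1 transcript under 800 nt (tolerance 0.15 of a step). The fit was tested on simulated data.

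Alternatives were no filter or a filter at 5 FPKM, pseudocounts of 0.1 and 0.01, TPM, median-ratio and quantile scaling, robust eBayes, an unmoderated variance, a block by replicate number, a loess correction (span 0.3) for GC content and length, and leaving out each library. The members and gene lists were chosen with earlier results of these data known. The genes named were all members, the other amino acid transporters with an adjusted p under 0.05, the measured regulators (some genes are not reported here), and the 5 genes with the most similar profile. Other names serve to describe a count or an overlap and were chosen after values were seen.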

Additional observations from a re-analysis of the deposited data

How the results depend on the processing

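SLC3A2, SLC1A4, SLC1A5 and SLC7A1 kept their direction and an adjusted p under 0.05 in all 18 alternatives. The number of members called higher was 4 to 8 when 1 library was left out and 4 to 7 under the other settings (4 with an unmoderated variance, 7 after the correction for GC content and length), and 0 members were called lower in any of these fits. SLC38A2 changed sign, with log2 fold changes of -0.24 to 0.26 when a library was left out (0.26 without OE replicate 1) and of 0.025 after the GC and length correction, with or without the replicate block. The number of other amino acid transporters called higher was 1 with an unmoderated variance and 5 after the GC and length correction, and 1 to 4 when a library was left out. Those called lower numbered 0 with an unmoderated variance, 1 with quantile normalization, 5 after the GC and length correction with or without the block, and 0 to 4 when a library was left out. Over all tested genes, 578 were higher and 821 lower. These counts were 381 and 453 with an unmoderated variance, 1777 and 1747 after the GC and length correction, 1370 and 1389 with the correction and the replicate block, 541 lower with a mean of at least 5 FPKM (fewer genes tested), and 364 higher with the replicate block. They ran from 146 to 1624 higher and from 154 to 1888 lower when a library was left out, with the lowest counts without NC replicate 1 and the highest without OE replicate 1. The cause of these shifts was not tested. The other scalings moved the median log2 fold change of all genes by less than 0.1.

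The submitters' design text calls the cells paired without saying what the pairs share, and the same replicate numbers occur in both groups, but same-numbered libraries did not deviate together beyond a correlation of 0.1 (0.073, 0.0065 and 0.057 for numbers 1, 2 and 3), so the numbers were not taken as pairs. With the replicate block, the 6 called members kept an adjusted p under 0.05 and no other member gained one, while the other amino acid transporters numbered 2 higher and 2 lower in place of 3 and 3.

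When 1 library was left out, the log2 differences of the ratios ran from -0.39 to 0.14 for SLC7A5 to SLC3A2, from -0.51 to 0.089 for SLC7A11 to SLC3A2, and from -0.55 to 0.29 for SLC7A11 to SLC7A5, and so changed sign. Those of SLC1A4 to SLC1A5 (0.57 to 0.65), SLC38A1 to SLC38A2 (0.45 to 0.63) and SLC7A1 to SLC3A2 (-0.58 to -0.40) did not. SLC1A3 had the fewest fragments of the members, about 98 to 169 per library.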
